A study of Homo sapiens with 6 samples.

Results

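Follistatin (FST) and 9 genes of activin, bone morphogenetic protein (BMP) and transforming growth factor beta (TGF-beta) signaling were described in A375 melanoma cells after FAH silencing. They were the ligand genes INHBA, TGFB2 and BMP4, the receptor genes ACVR1B, ACVR2A and TGFBR2, the inhibitory SMAD7, and the target genes ID1 and ID3. These 10 genes, of 18372 genes measured, were selected on the difference between siFAH and control siRNA in the same 6 arrays. They are FST, chosen as among the largest decreases, and listed genes around it. Their differences are therefore given as a description with no test. Of the 10, only FST was among the largest decreases, at rank 3 of 18372. The other genes with a negative difference lay between rank 3253 (INHBA) and rank 6739 (ACVR2A) from the largest decrease, and TGFB2, BMP4, SMAD7 and ID3 had a positive difference.

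A375 is an established human melanoma cell line. All 6 arrays were of A375 cells grown with fetal bovine serum and transfected with Lipofectamine for 72 h, 3 with negative control siRNA and 3 with siFAH, an siRNA against fumarylacetoacetate hydrolase (FAH), the last enzyme of tyrosine breakdown. The series' text calls the replicates biological, and a single cell line was used. The labels do not say which FAH siRNA was used, and effects of the siRNA other than on FAH were not tested. Each array was an Affymetrix Human Gene 1.0 ST array, whose probe set signals are on the log2 scale, so that a difference of 1 is a 2-fold change. Means are given with the SD over 3 arrays (n = 3 per group), and differences are siFAH minus control siRNA with limma's standard error (SE). In the check of the targeted gene, FAH was lower in siFAH by 0.77 on the log2 scale (SE 0.10, limma adjusted p = 0.0021), with no overlap between the arrays of the groups. Arrays correlated at 0.995 to 0.997 within groups and at 0.988 to 0.995 between groups, and their median signals lay between 4.92 and 5.04. Of 7 melanocyte lineage genes measured, MITF, SOX10 and S100B were above the 40% of genes with the dimmest mean signal, while PMEL, MLANA, TYR and TYRP1 were among that dimmest 40%. None of 3 leukocyte and 3 endothelial markers was above it, but 1 of 4 keratinocyte markers (KRT14) and all 4 fibroblast markers were. The summed log2 signal of the fibroblast list was 20.6 to 21.0 in control arrays and 20.8 to 21.3 in siFAH arrays, and that of the keratinocyte list was 16.1 to 16.6 and 15.9 to 16.9. All 6 neural crest-like melanoma markers were above that cutoff, and their summed log2 signal was lower in siFAH arrays (44.8 to 44.9) than in control arrays (45.4 to 45.6). Of these 6 markers AXL had the largest difference, of -0.55 (adjusted p = 0.0042). VIM (-0.14) and NGFR (-0.20) were lower and NES (0.043), SOX9 (0.016) and S100A4 (0.17) higher without passing the test. The part of these markers in the results was not tested.

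Activins, BMPs and TGF-betas are dimeric secreted ligands of one family. Each binds a type II receptor, which activates a type I receptor kinase. That kinase phosphorylates receptor SMADs, chiefly SMAD2 and SMAD3 for activin and TGF-beta and SMAD1, SMAD5 and SMAD9 for BMP, and these enter the nucleus with SMAD4. Follistatin is a secreted protein that binds activin very tightly and some BMPs less tightly, and keeps them from their receptors. In melanoma this family is known for effects on invasion and on the switch between differentiated and undifferentiated states.

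FST was the gene of the 10 with the lowest siFAH signal relative to control. The 3 control arrays gave log2 signals of 9.74, 9.86 and 9.94, and the 3 siFAH arrays gave 8.79, 8.74 and 8.54. Every siFAH array was below every control array. The means were 9.85 ± 0.10 in control and 8.69 ± 0.13 in siFAH, a difference of -1.16 (SE 0.09), or 0.449 times the control signal. That difference was 9.99 times the SD between replicates, and lay between -1.21 and -1.08 when the arrays were normalized in other ways or 1 array was left out. As the cells were measured in bulk, fewer cells with the transcript and less of it per cell cannot be told apart.

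The 250 bases before the start of FST are shown because the data turn on its transcript (RefSeq, GRCh38.p14, chr5:53480379-53480628, + strand). Capitals mark the letters searched for on both strands of this window: CAGAC, the core that SMAD3 and SMAD4 bind, and GGAGCC and GGCGCC, GC-rich elements bound by BMP SMADs. None of the matches overlapped another.
FST: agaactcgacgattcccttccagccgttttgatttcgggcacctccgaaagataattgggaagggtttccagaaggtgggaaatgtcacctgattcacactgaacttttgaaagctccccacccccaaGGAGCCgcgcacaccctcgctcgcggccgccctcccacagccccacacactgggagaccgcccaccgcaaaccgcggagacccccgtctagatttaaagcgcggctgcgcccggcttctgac
FST had a single match, GGAGCC, whose first base lies at -122 from the start. Of 35116 promoter windows of this length, 30.6% held GGAGCC or its reverse GGCTCC, 38% held CAGAC or GTCTG, 16.4% held GGCGCC, and 63.2% held any of them. All 10 genes had a promoter in this table. A match is only a run of letters and was not tested as a binding site.

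The ligand genes did not share a direction. INHBA, which encodes the beta A subunit of activin A, the main target of follistatin, gave log2 signals of 5.94, 6.17 and 6.18 in control arrays and 5.88, 6.07 and 5.86 in siFAH arrays. The groups overlapped, and the difference of -0.16 (SE 0.09) was 1.24 times the SD between replicates. TGFB2, a TGF-beta ligand, gave 4.11, 4.07 and 4.22 in control arrays and 4.33, 4.57 and 4.39 in siFAH arrays. All siFAH arrays were above all control arrays, with a difference of 0.29 (SE 0.08) that placed it at rank 668 from the largest increase. BMP4, a BMP ligand, gave 4.29, 4.34 and 4.35 in control arrays and 4.36, 4.34 and 4.32 in siFAH arrays. The values of the groups were intermixed, and the difference of 0.010 (SE 0.06) became -0.053 after quantile normalization. TGFB2 and BMP4 were among the dimmest 40% of genes by mean signal (under 4.97), so they were measured in the dimmer part of the array's range.

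Among the receptors the differences were small and negative. ACVR1B (ALK4), the type I receptor for activin, gave log2 signals of 6.02, 5.91 and 5.96 in control arrays and 5.90, 5.85 and 5.88 in siFAH arrays. The groups were apart, but the gap between the highest siFAH array and the lowest control array was narrow and the difference was -0.084 (SE 0.07). ACVR2A, a type II receptor for activin, gave 5.44, 5.62 and 5.63 in control arrays and 5.54, 5.54 and 5.47 in siFAH arrays. The groups overlapped, with a difference of -0.047 (SE 0.07). TGFBR2, the type II receptor for TGF-beta, gave 6.31, 6.41 and 6.51 in control arrays and 6.30, 6.27 and 6.17 in siFAH arrays. The groups were apart by less than the rounding of these values, with a difference of -0.16 (SE 0.08), and they overlapped after quantile normalization or cyclic loess.

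SMAD7 is an inhibitory SMAD that the pathway itself induces and that blocks its receptors. Its log2 signals were 4.40, 4.50 and 4.57 in control arrays and 4.53, 4.65 and 4.47 in siFAH arrays. The groups overlapped, and the difference of 0.059 (SE 0.08) became -0.0017 after quantile normalization. It too was among the dimmest 40% of genes.

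**Figure D1:**
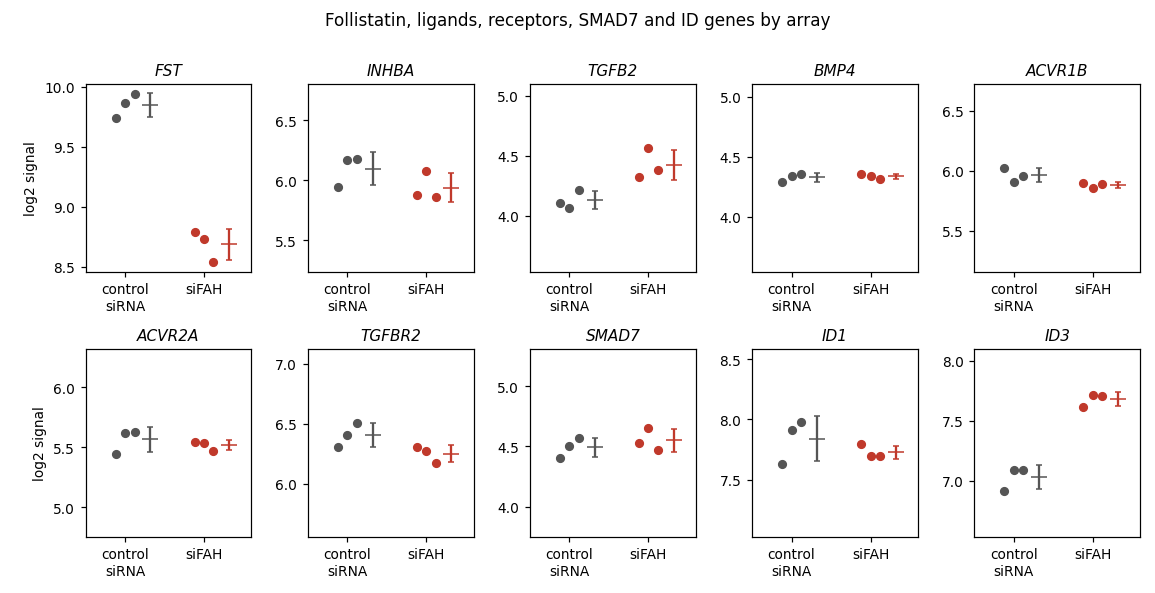
Log2 signal (vertical axis) of FST and the 9 other genes in the 3 control siRNA arrays (grey points) and the 3 siFAH arrays (red points), with the mean and SD of each group beside the points. All panels span the same number of log2 units, and FST and ID3 are the genes whose groups lie far apart.

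ID1 and ID3 encode small inhibitors of basic helix-loop-helix factors, and both are standard BMP target genes. In these cells they did not move together. ID1 gave log2 signals of 7.63, 7.91 and 7.98 in control arrays and 7.79, 7.69 and 7.69 in siFAH arrays. The groups overlapped through control array 1, and the difference was -0.11 (SE 0.09). ID3 gave 6.91, 7.09 and 7.09 in control arrays and 7.62, 7.72 and 7.71 in siFAH arrays. Every siFAH array was above every control array, and the difference of 0.65 (SE 0.07) was 1.57 times the control signal and at rank 104 from the largest increase. For ID3 the difference was 7.91 times the SD between replicates, and lay between 0.59 and 0.73 under the other normalizations and without each array.

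ID2 and ID4, the other members of the ID family, were not among the 10 genes and were tested. Both rose after FAH silencing. ID2 gave 4.22, 4.79 and 4.58 in control arrays and 5.12, 5.30 and 5.25 in siFAH arrays, a difference of 0.70 (SE 0.12, adjusted p = 0.0090). It was among the dimmest 40% of genes by its mean over all arrays. ID4 gave 5.91, 5.77 and 5.95 in control arrays and 6.28, 6.65 and 6.14 in siFAH arrays, a difference of 0.48 (SE 0.12, adjusted p = 0.030). The siFAH arrays of ID4 were spread more widely than its control arrays, and it did not pass the test without control array 2, control array 3 or siFAH array 2 (highest adjusted p = 0.10). In ID2 and ID4, as in ID3, which was chosen on this contrast, all siFAH arrays were above all control arrays, and in ID1 they were not. Over all genes, 13.4% had all siFAH arrays above all control arrays.

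The same upstream windows of the 4 ID genes are shown because ID2, ID3 and ID4 were higher in siFAH and ID1 overlapped (RefSeq, GRCh38.p14). They lie at chr20:31605039-31605288 (ID1, + strand), chr2:8681806-8682055 (ID2, + strand), chr1:23559502-23559751 (ID3, - strand) and chr6:19837120-19837369 (ID4, + strand), each printed 5′ to 3′ along the gene, with capitals as above.
ID1: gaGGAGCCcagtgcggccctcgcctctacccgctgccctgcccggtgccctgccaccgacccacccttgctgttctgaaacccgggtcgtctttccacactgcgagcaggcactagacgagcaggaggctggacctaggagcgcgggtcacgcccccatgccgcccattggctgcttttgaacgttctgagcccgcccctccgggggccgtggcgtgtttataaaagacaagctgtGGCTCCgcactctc
ID2: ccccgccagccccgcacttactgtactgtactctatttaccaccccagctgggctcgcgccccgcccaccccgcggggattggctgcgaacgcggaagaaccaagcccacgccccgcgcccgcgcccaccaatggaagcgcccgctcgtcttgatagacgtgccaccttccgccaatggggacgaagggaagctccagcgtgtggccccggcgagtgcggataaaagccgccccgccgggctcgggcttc
ID3: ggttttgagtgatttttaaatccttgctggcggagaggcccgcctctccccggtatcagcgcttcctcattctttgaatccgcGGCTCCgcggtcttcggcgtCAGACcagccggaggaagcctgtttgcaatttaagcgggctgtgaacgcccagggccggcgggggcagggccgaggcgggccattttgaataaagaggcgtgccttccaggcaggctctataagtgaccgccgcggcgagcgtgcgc
ID4: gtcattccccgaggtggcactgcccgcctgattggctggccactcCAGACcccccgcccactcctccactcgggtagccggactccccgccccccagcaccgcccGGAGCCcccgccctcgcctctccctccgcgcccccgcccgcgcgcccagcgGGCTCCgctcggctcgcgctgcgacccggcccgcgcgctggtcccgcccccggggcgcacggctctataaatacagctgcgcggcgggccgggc
GGAGCC or GGCTCC was in the windows of ID1 (first bases at -248 and -14), ID3 (-167) and ID4 (-145 and -94), and CAGAC was in those of ID3 (-147) and ID4 (-205). None of the letters searched for was in the ID2 window. Of all promoter windows of this length, 63.2% held any of these letters. Whether the letters bear on the differences of the ID genes was not tested.

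Taken by array overlap, 5 of the 10 genes had groups that did not overlap, 2 with siFAH higher (TGFB2 and ID3) and 3 with siFAH lower (FST, ACVR1B and TGFBR2). Over all genes, 32% had groups that did not overlap, 13.4% with siFAH higher and 18.6% with siFAH lower. Since the genes were chosen by this contrast, nothing is read from their count. The median difference of the 10 genes was -0.065, beside 0.0050 over all genes. The 5 became 3 after quantile normalization or cyclic loess, where TGFB2 and TGFBR2 overlapped. Without control array 1 they became 8, with INHBA, ACVR2A and ID1 added as lower. Control array 1 was the lowest control array for 8 of the 10 genes, and the lowest for 35.2% of all genes. In 8 of the 10 genes the direction was kept under every normalization and without each array, and BMP4 and SMAD7 were the exceptions.

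**Figure D2:**
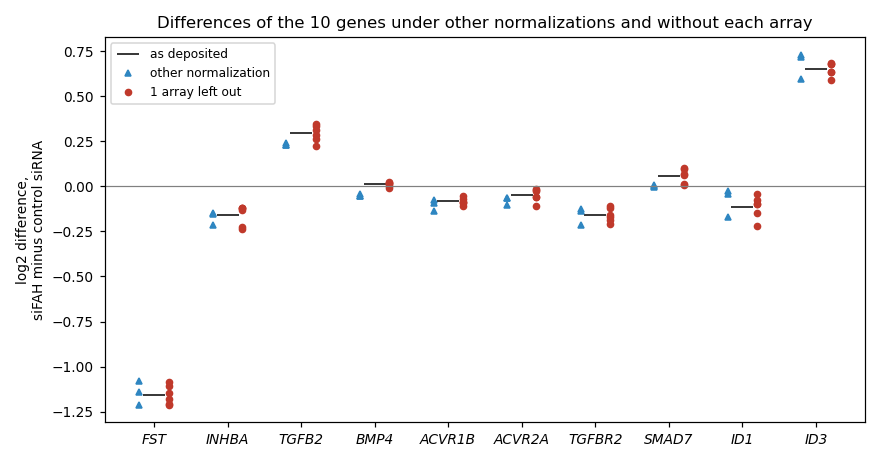
Log2 difference, siFAH minus control siRNA (vertical axis), of each of the 10 genes as deposited (black line), under 3 other normalizations (blue triangles) and with 1 array left out in turn (red points). FST stays between -1.21 and -1.08 and ID3 between 0.59 and 0.73, while BMP4 and SMAD7 cross 0.

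The rest of the pathway was then tested with limma over all 18372 genes, of which 9.86% passed the test, 3.48% as higher and 6.38% as lower in siFAH. Of 105 other pathway genes listed, 98 were measured here. In all, 8 rose, 8 fell and 82 did not pass the test, so that 16.3% passed. Their median difference was 0.043, and -0.011 with each array centred on its median. The list was chosen with earlier results of these data known, so the 16.3% is a description. It was grouped by role, and the genes named below in each role are the 4 with the largest difference, called or not, unless said otherwise.

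None of the 29 other ligand genes measured passed the test, and 3 had an unadjusted p under 0.05 by limma, 2 higher and 1 lower (3 by the methods' t-test and 1 by SAM). The largest differences were those of BMP15 (0.26, adjusted p = 0.20), BMP2 (0.23, adjusted p = 0.13), INHBE (0.21, adjusted p = 0.25) and LEFTY1 (0.18, adjusted p = 0.27). Of the fits with 1 array left out, BMP15 passed only without control array 1 (adjusted p = 0.024). INHBB, the beta B subunit of activin, had a difference of 0.044 (adjusted p = 0.77), and INHA, the inhibin alpha subunit that opposes activin, had one of 0.11 (adjusted p = 0.35). INHBB and INHA were named for their link to follistatin. BMP15, INHBE and INHA were among the dimmest 40% of genes.

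Of 19 other extracellular antagonists and ligand-binding proteins, 1 fell and 1 rose. THBS1, thrombospondin 1, which can release TGF-beta from its latent complex, gave log2 signals of 10.05, 10.07 and 10.20 in control arrays and 9.59, 9.36 and 9.42 in siFAH arrays. It fell by 0.65 on the log2 scale (SE 0.08, adjusted p = 0.0019), with every siFAH array below every control array, and it passed the test whichever array was left out. CER1, a secreted antagonist of nodal and BMP, rose from 3.86 ± 0.10 to 4.14 ± 0.09 (0.28, SE 0.08, adjusted p = 0.048). CER1 was among the dimmest 40% of genes, did not pass under any of the 3 other normalizations, and of the fits with 1 array left out it passed only in that without control array 1. SOSTDC1 (0.24, adjusted p = 0.16) and SOST (0.19, adjusted p = 0.13), both BMP and Wnt antagonists, did not pass the test, and SOSTDC1 was among the dimmest 40% of genes. FSTL3, the closest relative of follistatin and also an activin binder, had signals of 6.25, 6.22 and 6.32 in control arrays and 6.32, 6.24 and 6.12 in siFAH arrays. The groups of FSTL3 overlapped, with a difference of -0.035 (SE 0.07, adjusted p = 0.80).

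Among 14 other receptors and co-receptors, 2 fell and 1 rose, and all 3 encode receptors for BMPs. ACVR1 (ALK2), a type I receptor, fell from 6.06 ± 0.18 to 5.68 ± 0.10 (-0.38, SE 0.10, adjusted p = 0.037). BMPR2, a type II receptor, fell from 6.65 ± 0.12 to 6.35 ± 0.07 (-0.29, SE 0.08, adjusted p = 0.043). BMPR1B, a type I receptor, rose from 3.19 ± 0.11 to 3.55 ± 0.16 (0.36, SE 0.09, adjusted p = 0.036), at a signal among the dimmest 40% of genes. The arrays of the groups did not overlap for any of these, but each call was lost when certain arrays were left out. Without control array 2, control array 3, siFAH array 2 or siFAH array 3, none of the 3 passed, and the highest adjusted p values were 0.13 (ACVR1), 0.12 (BMPR2) and 0.13 (BMPR1B). BMPR1B was also lost without control array 1 and under all 3 other normalizations, and BMPR2 without siFAH array 1 and with cyclic loess. TGFBR1 (ALK5), the type I receptor for TGF-beta, did not pass the test (0.20, adjusted p = 0.15). ACVR2B, a type II receptor for activin like ACVR2A, had a difference of 0.047 (adjusted p = 0.83).

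Of 17 SMADs and SMAD regulators, 2 fell and none rose. Positive differences were seen in 4 of the 17, and in 2 to 5 under the other normalizations. SMAD5, a receptor SMAD of the BMP branch, gave 6.82, 7.03 and 7.34 in control arrays and 6.47, 6.42 and 6.54 in siFAH arrays. It fell by 0.59 on the log2 scale (SE 0.11, adjusted p = 0.012), and it passed the test whichever array was left out. The control arrays of SMAD5 were spread widely (SD 0.26), but the groups did not overlap. SMURF2, a ubiquitin ligase that marks SMADs and receptors for breakdown, fell from 8.10 ± 0.10 to 7.79 ± 0.01 (-0.30, SE 0.07, adjusted p = 0.026). Of the fits with 1 array left out, SMURF2 passed only without control array 1, and it did not pass after quantile normalization or cyclic loess. SMAD4 (-0.28, adjusted p = 0.11) and SMAD2 (-0.24, adjusted p = 0.096) did not pass the test. The other receptor SMADs had smaller differences, of -0.066 for SMAD1, -0.060 for SMAD3 and -0.013 for SMAD9, and the inhibitory SMAD6 had one of 0.042.

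Of 10 other TGF-beta and activin target genes, 3 fell and 2 rose, with a median difference of -0.0065 that became 0.0021 with cyclic loess. TPM1, a tropomyosin of actin filaments, fell from 6.26 ± 0.10 to 5.89 ± 0.08 (-0.37, SE 0.08, adjusted p = 0.018). CDKN1A, the p21 inhibitor of the cell cycle, fell from 7.06 ± 0.09 to 6.73 ± 0.08 (-0.33, SE 0.08, adjusted p = 0.024). CCN2, connective tissue growth factor, fell from 6.84 ± 0.07 to 6.51 ± 0.09 (-0.33, SE 0.07, adjusted p = 0.022). In the other direction, TGFBI, a secreted matrix protein named for its induction by TGF-beta, rose from 8.92 ± 0.11 to 9.30 ± 0.13 (0.38, SE 0.09, adjusted p = 0.023). JUNB, an AP-1 factor named here after its values were seen, rose from 7.29 ± 0.09 to 7.54 ± 0.02 (0.25, SE 0.07, adjusted p = 0.047). The targets thus did not share a direction, and in none of these 5 did the groups overlap. Each of these calls was lost without at least 1 array, control array 2 in all 5 cases, with the highest adjusted p of each gene between 0.072 (TPM1) and 0.14 (JUNB). TPM1 was lost also without siFAH array 3, TGFBI without control array 1, siFAH array 1 or siFAH array 2, CCN2 without control array 3 or siFAH array 3, CDKN1A without control array 3, siFAH array 2 or siFAH array 3, and JUNB without every array but control array 1, and also with centring on the median.

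**Figure D3:**
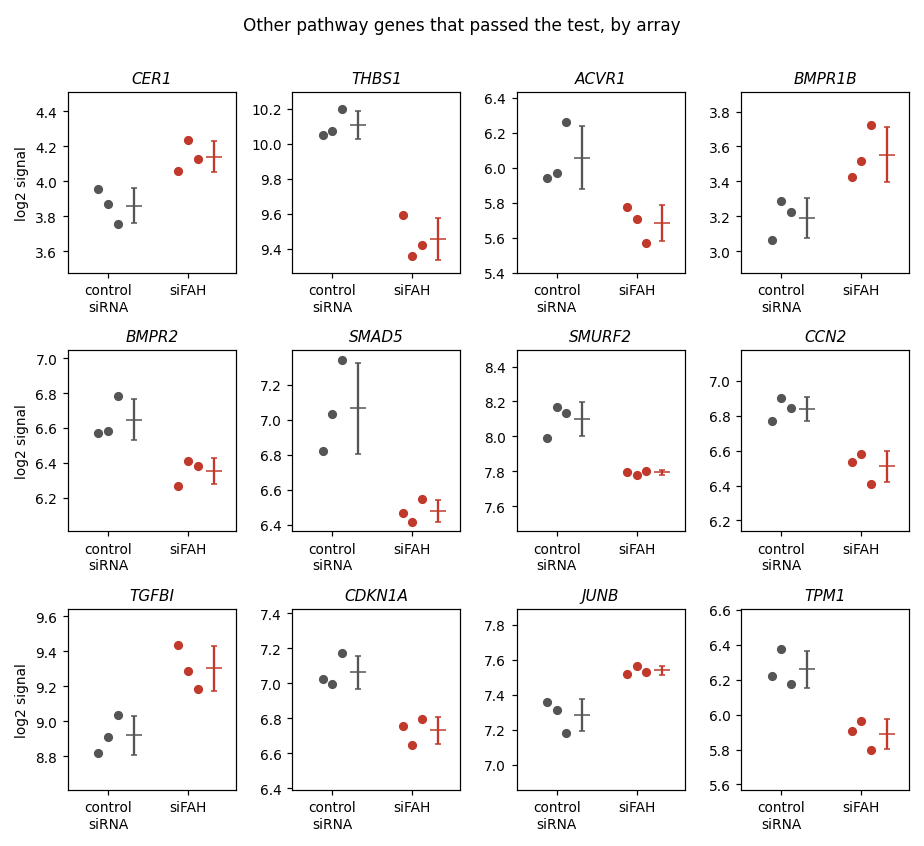
Log2 signal (vertical axis) of the 12 pathway genes that passed the test outside the BMP target genes, in control siRNA arrays (grey) and siFAH arrays (red), with mean and SD beside the points. All panels span the same number of log2 units. The groups overlap in none of them, and THBS1 and SMAD5 have the widest gaps.

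The other BMP target genes, a list that leaves out ID1 (-0.11) and ID3 (0.65), were the list with the most increases. All 9 had a positive difference, as they did under each other normalization, 4 rose and none fell, with a median of 0.29 beside 0.0050 over all genes. The 4 that rose were ID2, ID4, RUNX2 and DLX2, and they make up 44.4% of the list, beside 3.48% of all genes called higher. This list was drawn up with earlier results of these data known, so nothing is read from its share or its shared direction. RUNX2, a runt factor of bone formation, gave log2 signals of 5.64, 5.51 and 5.56 in control arrays and 6.10, 5.94 and 6.18 in siFAH arrays (0.50, SE 0.08, adjusted p = 0.0052). DLX2, a homeobox factor of the neural crest and forebrain, gave 5.92, 5.90 and 5.93 in control arrays and 6.50, 6.46 and 6.73 in siFAH arrays (0.65, SE 0.08, adjusted p = 0.0020). ID2, RUNX2 and DLX2 passed the test whichever array was left out.

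The other 5 genes of that list are given to complete it and did not pass the test. They were HEY1 (0.22, adjusted p = 0.055), MSX1 (0.17, adjusted p = 0.12), DLX5 (0.29, adjusted p = 0.15), MSX2 (0.11, adjusted p = 0.33) and ATOH8 (0.12, adjusted p = 0.43). In HEY1, MSX1 and MSX2 all siFAH arrays were above all control arrays, as in 13.4% of all genes. In DLX5 and ATOH8 the groups overlapped. The list's median stayed between 0.20 and 0.36 under the other normalizations, among brighter genes and without each array. By the methods' t-test, with an adjustment added here, none of the 9 was called, although 7 had an unadjusted p under 0.05. SAM, which the paper names for its array genes, called 5 here without the paper's fold limit. The BMP ligands, receptors, SMADs and these targets were thus not of 1 direction. No BMP ligand gene that was tested passed, SMAD5, ACVR1 and BMPR2 fell, and BMPR1B, ID2, ID4, RUNX2 and DLX2 rose. Of these calls, only those of SMAD5, ID2, RUNX2 and DLX2 held whichever array was left out. Phosphorylated SMAD protein and secreted ligand were not measured by these arrays.

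**Figure D4:**
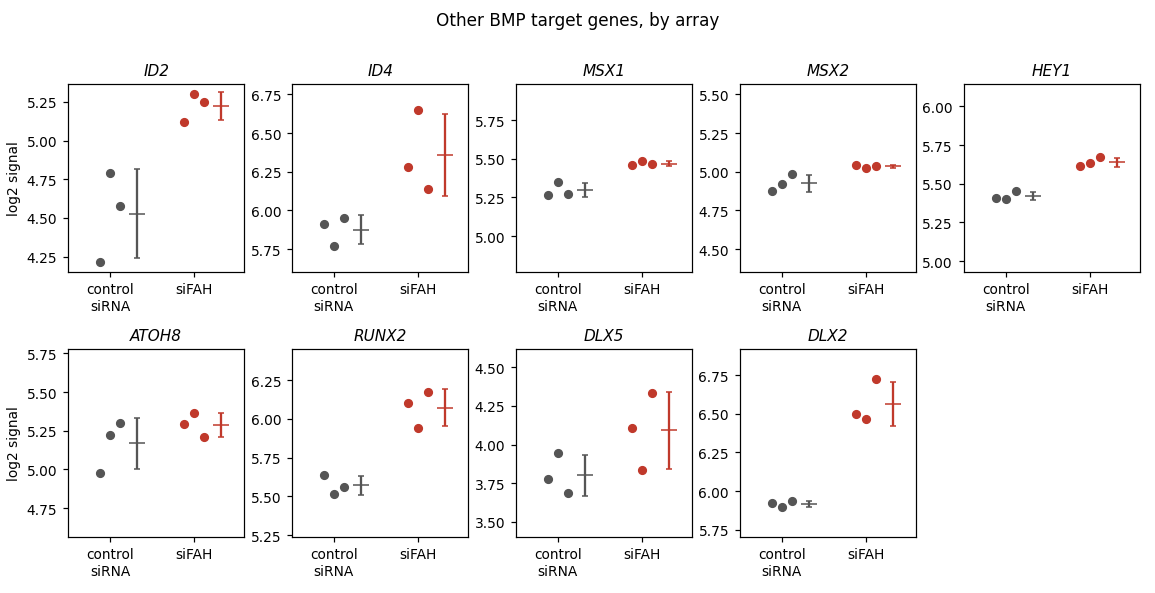
Log2 signal (vertical axis) of the 9 BMP target genes outside the 10 chosen genes, in control siRNA arrays (grey) and siFAH arrays (red), with mean and SD beside the points. All panels span the same number of log2 units, and ID2, ID4, RUNX2 and DLX2 are those that passed the test.

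**Figure D5:**
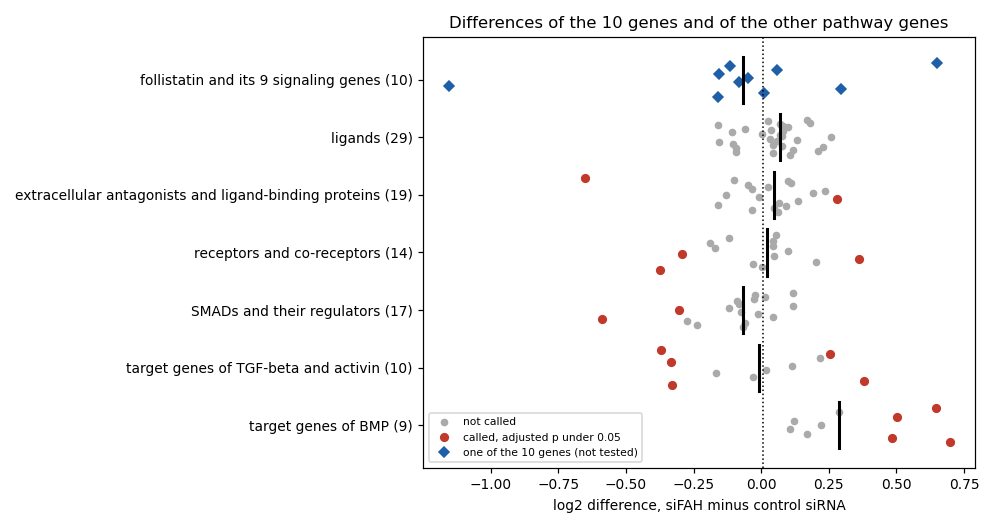
Log2 difference, siFAH minus control siRNA (horizontal axis), of the 10 chosen genes (blue diamonds, not tested) and of 98 other pathway genes by role (red where limma's adjusted p was under 0.05, grey otherwise). Black bars are medians and the dotted line is the median of all genes, and the bar of the BMP target genes lies farthest to the right, at 0.29.

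The genes whose signals followed those of FST most closely over the 6 arrays were named by Pearson's r, outside the 10 genes. They were PPP1CA, a catalytic subunit of protein phosphatase 1 (r = 0.998), XAB2, a splicing and repair factor (r = 0.998), SNAPC3, a subunit of the snRNA-activating complex (r = 0.997), STIP1, a co-chaperone of HSP70 and HSP90 (r = 0.997), and PYGB, the brain form of glycogen phosphorylase (r = 0.997). All 5 were lower in all siFAH arrays than in all control arrays, by differences of -0.29, -0.11, -0.35, -0.33 and -0.63 in that order. With 2 groups of 3 arrays these values mostly restate the step between the groups, and they are given as a description.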

How the data were processed

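A375 cells were profiled on 6 Affymetrix Human Gene 1.0 ST arrays, 3 per group, grouped by the labels. The deposited values are log2 signals that the authors made by RMA with global scaling; the RMA version and genome build are not given in the sources used here. There is no read depth for arrays, and their number limits how precise a value is.

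Of 28829 probe sets, 19291 had 1 gene symbol, 1735 several and 7803 none named here. Gene IDs were used to look up current symbols (19260 matched, 0 changed), and for each of 18372 symbols the probe set with the highest mean was kept, 1 probe set for each of the 10 genes. In R 4.3.3, limma 3.58.1 (lmFit, then eBayes) was used to compare the groups (two-sided, 4 residual and 6.52 prior degrees of freedom), with Benjamini-Hochberg adjustment over all genes and a call at an adjusted p under 0.05. With 3 arrays against 3, an exact permutation test cannot go below 0.1, so none was run. The tests were tested on simulated data. Plots came from Python 3.11.15 and matplotlib 3.10.9. The 250 bases before the gene start were searched for motifs in the promoters found in the RefSeq table, those of all 10 genes and of 7 of the 9 BMP target genes.

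The 10 genes and the pathway and marker lists were chosen with earlier results of these data known. Named were the 10 genes, FAH, the 4 genes with the largest difference in each of the 6 pathway lists and the 5 genes most like FST; all others (JUNB, INHBB, INHA, FSTL3, ACVR2B, SMAD1, SMAD3, SMAD6, SMAD9 and 5 BMP target genes) were added after values were seen. Of 105 pathway genes listed, 98 were tested, and the others were not analysed here. Alternatives were quantile normalization, centring on the median, cyclic loess, leaving out the dimmest 40% of genes (mean log2 signal under 4.97), averaging the probe sets of a gene, a block for the replicate number, array weights, trended and robust eBayes, SAM (all 20 arrangements of the labels, fudge constant 0.113), the methods' t-test, and leaving out each array. The paper found its array genes by SAM with a fold limit of 1.2 and p under 0.05. It names Student's t-test for mRNA differences in general. Calls by either method here used adjusted values and no fold limit, so they are not the paper's own calls.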

Additional observations from a re-analysis of the deposited data

How the results depend on the processing

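Under every normalization, with averaged probe sets, with the block and without each array, direction was kept by 8 of the 10 genes, BMP4 and SMAD7 being the exceptions, and by the 24 pathway genes named by rule and JUNB. Of the 16 pathway calls, 13 were kept after quantile normalization, 13 with centring on the median, 12 with cyclic loess, and 5 to 14 without 1 array. Genes called higher numbered 639 and lower 1172. With centring, 416 were higher, and with array weights 1170. With the methods' t-test, adjusted here, 6 were higher and 8 lower, and with SAM 863 were higher and 1518 lower. Pathway genes called higher, 8 in the fit reported, were 5 with centring. By the adjusted t-test 0 pathway genes were higher and 0 lower, and by SAM 9 were higher and 8 lower. Leaving out 1 array gave 267 to 653 genes higher and 390 to 1192 lower, 3 to 7 pathway genes higher and 2 to 8 lower, 5 to 8 of the 10 genes without overlap, and a pathway median of 0.015 to 0.055. Of the 10 genes, 5 had no overlap in the fit reported, 3 after quantile normalization and 3 after cyclic loess. The pathway median of 0.043 became -0.00053 after quantile normalization, -0.011 with centring and 0.0022 with cyclic loess.

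Same-numbered arrays did not deviate together (correlations of -0.16, -0.089 and -0.27). With 3 arrays per group these correlations cannot decide whether the replicate number pairs the samples, and the labels do not say. With the replicate block, 299 genes were higher and 462 lower, and of the pathway genes 3 were higher and 3 lower. Centring on the median moved the median of all genes by -0.054. Signals among the dimmest 40% of genes (TGFB2, BMP4, SMAD7, ID2, CER1, BMPR1B, BMP15, INHBE, INHA, SOSTDC1, SMAD9 and DLX5) lie in the dimmer part of the range, which limits differences there.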
